A study of Homo sapiens with 24 samples.

Results

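The genes described here are those of polyamine metabolism, 10 of the 18915 genes in the count table: SAT1, SMOX, PAOX, ODC1, AMD1, SRM, SMS, OAZ1, OAZ2 and AZIN1. They were chosen by gene name for their place in the pathway (synthesis, breakdown and the antizyme system). No rule on their values was used, but earlier results of these data were known when they were chosen. All 10 passed the filter on low counts and were tested. HepG2 cells, an established human hepatoma line, had been kept for 10 h in fresh medium with vehicle (DMSO), 50 nM ISRIB, 20 µM nelfinavir or 50 nM bortezomib, or with 50 nM bortezomib plus either 20 µM nelfinavir or 50 nM ISRIB. Bortezomib inhibits the proteasome, nelfinavir is an HIV protease inhibitor that also evokes the integrated stress response, and ISRIB blocks that response downstream of eIF2α phosphorylation. Each of the 6 treatments had 4 biological replicates, which gave 24 3′ mRNA-Seq libraries of 1 cell line at 1 dose of each drug and 1 time point. The comparisons ask which polyamine genes respond to each drug alone and how the response to bortezomib changes when the stress response is heightened by nelfinavir or dampened by ISRIB.

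Putrescine, spermidine and spermine are small positively charged molecules that bind nucleic acids and are needed for growth and translation. Ornithine decarboxylase (ODC1) makes putrescine, AMD1 supplies the aminopropyl donor decarboxylated S-adenosylmethionine, and the spermidine and spermine synthases (SRM and SMS) add it. SAT1 acetylates spermidine and spermine, the acetylpolyamine oxidase PAOX returns the acetylated forms to lower polyamines, and SMOX oxidises spermine directly, releasing hydrogen peroxide. The antizymes OAZ1 and OAZ2, whose translation requires a ribosomal frameshift promoted by polyamines, bind ODC1 and deliver it to the proteasome without ubiquitin, and AZIN1, an inactive relative of ODC1, captures antizyme. These libraries measure mRNA only, so that neither the stability of the ODC1 protein nor frameshifting on antizyme mRNA was measured.

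Total counts ran from 5950624 to 6943164 in the 12 libraries without bortezomib and from 5154533 to 6173764 in the 12 with it. Mitochondrially encoded genes took 21.5% ± 1.32 of the counts in DMSO and 33.8% ± 1.20 (SD, n = 4 each) in bortezomib, a difference of 12.3 percentage points (p = 0.0286 in an exact permutation test on both sides, which cannot go lower with 4 against 4). The TMM factors, which make libraries comparable for the bulk of genes, ran from 0.786 to 0.869 with bortezomib and from 1.16 to 1.24 without it. Levels below are CPM (library counts scaled to a common depth with these factors). In bulk RNA, less RNA of a gene per cell and fewer cells that express it cannot be told apart. Replicates 1 and 2 of bortezomib with nelfinavir stood apart from replicates 3 and 4 on the first component of the variation within groups (-0.323 and -0.378 against 0.414 and 0.287), as did replicate 3 of bortezomib with ISRIB (0.508). All 6 hepatocyte markers looked at were present, with group means from 34.8 to 3324 CPM, and their summed level moved with treatment. It was 9021 to 10090 CPM per library in DMSO, 8738 to 9485 in ISRIB, 8426 to 9766 in nelfinavir, 6123 to 6735 in bortezomib, 4074 to 5615 in bortezomib with nelfinavir and 6007 to 8135 in bortezomib with ISRIB. Of the markers of other cell types, PTPRC and CD3E (leukocyte) and PECAM1, VWF and CDH5 (endothelial) had no row in the count table. LYZ, the only leukocyte marker with a row, was at 333.3 to 415.5 CPM in DMSO and 73.3 to 122.3 CPM in bortezomib. The 3 fibroblast markers stayed at or below 0.488 CPM as group means. The part of these shifts in the results below was not tested.

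The windows before the transcription start are shown for SAT1, the member with the smallest p under bortezomib, for ODC1, the first enzyme of the pathway, and for SRM, whose window holds a match to a searched pattern. RefSeq promoters (GRCh38.p14) were matched by symbol for 7 of the 10 members, not for SMOX, PAOX and AZIN1. Each sequence is the 250 bases 5′ of the most upstream start listed for the gene, written 5′ to 3′ on the gene's strand, and capitals mark a match. The SAT1 window lies at chrX:23782923-23783172 (+ strand), the ODC1 window at chr2:10448328-10448577 (- strand) and the SRM window at chr1:11060019-11060268 (- strand).
SAT1: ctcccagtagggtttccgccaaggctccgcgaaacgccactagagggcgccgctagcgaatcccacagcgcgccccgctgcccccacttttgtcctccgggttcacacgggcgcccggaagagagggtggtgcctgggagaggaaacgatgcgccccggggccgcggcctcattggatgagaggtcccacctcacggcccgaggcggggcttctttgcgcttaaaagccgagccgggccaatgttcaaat
ODC1: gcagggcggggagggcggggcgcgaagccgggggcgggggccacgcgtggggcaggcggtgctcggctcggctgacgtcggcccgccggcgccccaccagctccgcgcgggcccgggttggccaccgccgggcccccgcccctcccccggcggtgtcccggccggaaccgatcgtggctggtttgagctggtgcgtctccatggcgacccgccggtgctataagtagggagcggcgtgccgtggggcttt
SRM: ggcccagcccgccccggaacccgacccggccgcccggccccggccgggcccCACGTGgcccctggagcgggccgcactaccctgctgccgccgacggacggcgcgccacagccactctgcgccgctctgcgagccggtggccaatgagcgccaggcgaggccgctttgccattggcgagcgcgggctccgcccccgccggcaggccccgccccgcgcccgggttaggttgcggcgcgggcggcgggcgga
Both strands of 10 such windows of the 7 members were searched for an ATF4 composite site (TGATGNAA), a cAMP response element (TGACGTCA), an antioxidant response element (TGACNNNGC), a heat shock inverted repeat (GAANNTTC) and an E-box (CACGTG). The response element patterns can share bases, since both begin with TGAC. The E-box was the only one of the 5 patterns found, 199 bases before the SRM start and 29 bases before a second, downstream start of ODC1 whose window is not shown. Of 35116 RefSeq promoters, 6.34% hold this E-box, 3.14% the ATF4 pattern, 1.65% the cAMP response element, 10.9% the antioxidant response pattern and 5.78% the heat shock pattern in a window of that length. These matches are letters in a window only, and the absence of a match says nothing about a factor.

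Bortezomib changed 9 of the 10 genes. SAT1, SMOX, ODC1, OAZ1 and AZIN1 rose and PAOX, AMD1, SRM and SMS fell, whereas OAZ2 was not called. With library totals in place of TMM factors, 2 were higher (SAT1 and SMOX) and 5 lower, since ODC1, OAZ1 and AZIN1 lost their calls and OAZ2 was called lower. Among all 12685 genes tested, 27.6% were higher and 25.8% lower by the same rule, which asks for a Benjamini-Hochberg adjusted p below 0.05 from the quasi-likelihood fit in edgeR. The median log2 fold change was 0.27 over the 10 members and 0.00174 over all genes. Where libraries of 2 treatments are said here not to overlap, the share of all genes for which this held was not counted. In size, SAT1 and SMOX stood out from the other members, while 7 of the other 8 moved by less than 1 on the log2 scale in either direction.

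SAT1 (ENSG00000130066, chrX:23801290-23804327, + strand, GRCh37), the acetyltransferase that starts polyamine breakdown, was measured at 122.5, 122.8, 127.2 and 124.0 CPM in DMSO. Bortezomib brought it to 859.3, 909.6, 926.4 and 789.0 CPM. The groups did not overlap, and the log2 fold change was 2.81 (SE 0.0754, edgeR adjusted p = 7.83e-25), the third smallest p among the genes that rose. SAT1 reached 978.6, 1057, 1053 and 1065 CPM on co-treatment with nelfinavir and 683.7, 677.3, 740.5 and 718.3 CPM on co-treatment with ISRIB. Every library of the first co-treatment was above, and every library of the second below, all 4 libraries of bortezomib alone. The corresponding log2 fold changes against bortezomib were 0.25 (SE 0.0699, edgeR adjusted p = 0.0063) and -0.31 (SE 0.0701, edgeR adjusted p = 0.00303). The first was not called in a model of only the groups compared (log2 fold change 0.24, edgeR adjusted p = 0.0657).

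SMOX (ENSG00000088826, chr20:4101627-4168394, + strand), which encodes spermine oxidase, had 18.2, 17.3, 16.1 and 16.8 CPM in DMSO and 149.7, 145.3, 134.5 and 151.3 CPM in bortezomib. Its log2 fold change of 3.08 (SE 0.109, edgeR adjusted p = 1.31e-21) was the largest of the 10 genes. Nelfinavir alone gave 47.3, 38.2, 44.6 and 47.0 CPM. This was above every DMSO and ISRIB library and below every library with bortezomib, and the log2 fold change against DMSO was 1.37 (SE 0.109, edgeR adjusted p = 7.43e-12). Together, bortezomib and nelfinavir gave 190.2, 169.6, 223.0 and 197.4 CPM, and bortezomib with ISRIB gave 106.0, 110.2, 112.0 and 109.6 CPM. As with SAT1, the libraries of the 3 bortezomib groups did not overlap: against bortezomib, SMOX rose by 0.43 on the log2 scale with nelfinavir (SE 0.096, edgeR adjusted p = 0.000981) and fell by 0.41 with ISRIB (SE 0.0976, edgeR adjusted p = 0.00447). In order of mean level, both genes ran from DMSO and ISRIB, whose libraries overlapped, through nelfinavir, bortezomib with ISRIB and bortezomib to bortezomib with nelfinavir, with no overlap between any later neighbours.

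PAOX (ENSG00000148832, chr10:135192765-135205198, + strand), the oxidase that acts after SAT1, was the exception among the catabolic genes. Its libraries held 32, 34, 35 and 36 counts in DMSO and 8, 11, 5 and 7 counts in bortezomib. PAOX fell by 1.42 on the log2 scale (SE 0.413, edgeR adjusted p = 0.00415). The 3 groups with bortezomib held 1 to 13 counts per library, and the 3 without it 20 to 59. In CPM, their ranges of 0.197 to 2.89 and 2.39 to 7.66 overlapped. At these counts the co-treatments could not be resolved, since the log2 fold changes of -0.65 with nelfinavir and 0.41 with ISRIB had intervals (2 SE on either side) from -1.69 to 0.39 and from -0.52 to 1.35. In the GENCODE annotation, the final 500 bases of PAOX transcripts share 368 bases at 100% identity with a readthrough gene on the same strand. Reads of either gene may have been counted for the other if both were in the annotation used for counting, which was not looked at.

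ODC1 (ENSG00000115758, chr2:10580094-10588453, - strand) had 211.0, 233.9, 221.8 and 250.3 CPM in DMSO and 352.5, 356.8, 358.4 and 409.7 CPM in bortezomib. The groups did not overlap, and the log2 fold change was 0.69 (SE 0.131, edgeR adjusted p = 4.16e-05). With library totals in place of TMM factors, a scaling that moved the median of all genes by -0.50, it was 0.19 and no longer called (edgeR adjusted p = 0.196). On co-treatment with nelfinavir ODC1 was at 225.3, 235.5, 126.1 and 145.6 CPM, and with ISRIB at 281.2, 286.1, 214.3 and 287.1 CPM. All 8 of these libraries were below those of bortezomib alone, and the log2 fold changes against it were -1.01 (SE 0.133, edgeR adjusted p = 5.1e-07) and -0.47 (SE 0.132, edgeR adjusted p = 0.0157). The first of these differed in size between the 2 pairs of libraries that stood apart, at -0.67 (edgeR adjusted p = 4.81e-05) with replicates 1 and 2 alone and -1.39 (edgeR adjusted p = 6.38e-11) with replicates 3 and 4 alone, but it was called with either pair. Without the low replicate 3, the change with ISRIB was -0.38 (edgeR adjusted p = 0.0462). Nelfinavir alone left ODC1 at 193.9, 216.6, 175.9 and 206.0 CPM, and its log2 fold change of -0.21 against DMSO was not called (edgeR adjusted p = 0.301), though it was in a model of only the groups compared (edgeR adjusted p = 0.0351) and with the first residual component as a covariate (edgeR adjusted p = 0.0201). Hence, of the 6 treatments, only bortezomib alone had libraries that were separate from those of its neighbours in the order of mean ODC1 level.

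The other synthesis genes were lower in bortezomib than in DMSO. AMD1 (ENSG00000123505, chr6:111195973-111220082, + strand), the S-adenosylmethionine decarboxylase, went from 215.2, 211.3, 204.9 and 202.1 CPM in DMSO to 152.3, 175.9, 139.8 and 175.5 CPM, a log2 fold change of -0.37 (SE 0.0822, edgeR adjusted p = 0.000265). SRM (ENSG00000116649, chr1:11114641-11120077, - strand), whose promoter window with the E-box is shown above, went from 113.4 to 143.1 CPM in DMSO to 97.7 to 108.4 CPM, a log2 fold change of -0.36 (SE 0.0954, edgeR adjusted p = 0.0018). SMS (ENSG00000102172, chrX:21958827-22012955, + strand) had 130.3, 130.0, 125.1 and 134.5 CPM in DMSO and 86.6, 89.4, 89.35 and 104.4 CPM in bortezomib, and fell by 0.49 on the log2 scale (SE 0.101, edgeR adjusted p = 0.000114). For all 3 genes the 4 bortezomib libraries were below the 4 DMSO libraries. Nelfinavir alone gave lower AMD1 (log2 fold change -0.30, SE 0.0813, edgeR adjusted p = 0.00706) and lower SMS (log2 fold change -0.34, SE 0.0992, edgeR adjusted p = 0.0131), and the SRM change of -0.08 was not called. SMS was 120.3, 121.5, 142.4 and 113.9 CPM on co-treatment with nelfinavir, above every library of bortezomib alone (log2 fold change 0.43, SE 0.102, edgeR adjusted p = 0.00173). The final 500 bases of SMS transcripts align at 98.2% identity to another annotated gene and nearly as closely to a further one, and how reads shared with these copies were counted is not given in the sources used here.

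Of the antizyme system, OAZ1 (ENSG00000104904, chr19:2269508-2273489, + strand) and AZIN1 (ENSG00000155096, chr8:103838339-103906092, - strand) rose with bortezomib when scaled with TMM factors, and this depended on the scaling. OAZ1 had 515.6, 564.3, 522.6 and 544.4 CPM in DMSO and 703.0, 701.1, 769.9 and 838.5 CPM in bortezomib. AZIN1 had 42.0, 39.6, 48.0 and 44.9 CPM in DMSO and 61.2, 59.7, 58.1 and 66.4 CPM in bortezomib. No library overlapped between the groups for either gene, and the log2 fold changes were 0.49 (SE 0.141, edgeR adjusted p = 0.0039) for OAZ1 and 0.49 (SE 0.119, edgeR adjusted p = 0.000704) for AZIN1. With library totals alone they were -0.0102 (edgeR adjusted p = 0.954) and -0.00592 (edgeR adjusted p = 0.970). OAZ2 (ENSG00000180304, chr15:64979772-64995480, - strand) was at 25.6 to 30.9 CPM in DMSO and 24.3 to 34.2 CPM in bortezomib, with a log2 fold change of 0.06 (interval of 2 SE from -0.21 to 0.33, edgeR adjusted p = 0.743) that became -0.44 with library totals (edgeR adjusted p = 0.00758). SAT1, SMOX and the 4 genes that fell kept their direction and call under library totals, which then gave 2 members higher and 5 lower. The share of mitochondrially encoded counts moved with bortezomib as given above. With those genes removed before scaling, the member calls were again 5 higher and 4 lower. Any other part of this share in these values was not tested. In the GENCODE annotation, the final 500 bases of AZIN1 share 105 bases at 100% identity with another gene on the same strand. A further GENCODE gene covers the OAZ1 region on its strand. The authors counted on an Ensembl annotation, and whether it held these genes was not looked at. Whether any reads were split is therefore not known. Antisense genes overlap OAZ1, OAZ2 and AZIN1, and the strand setting of the counting is not given in the sources used here.

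**Figure D1:**
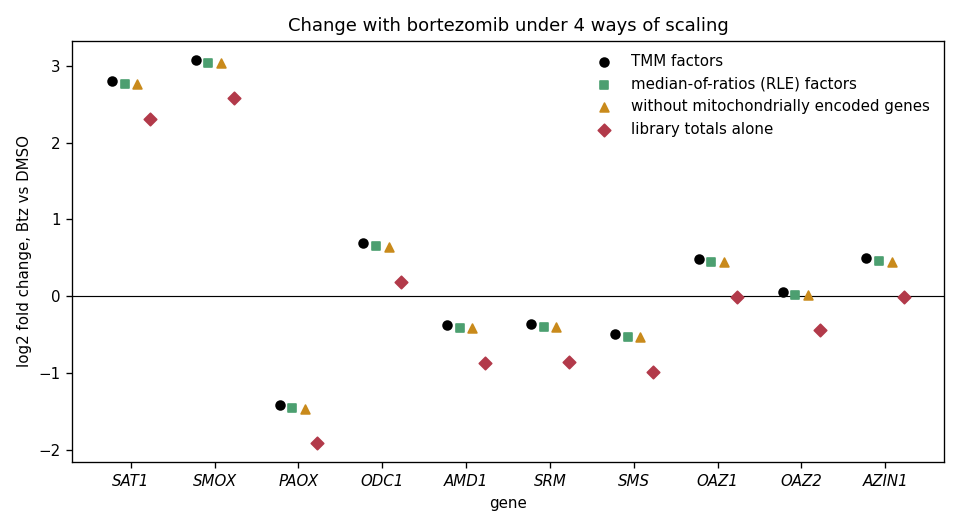
Log2 fold change between bortezomib and DMSO (vertical axis) for each of the 10 genes under 4 ways of scaling the libraries. SAT1, SMOX, PAOX, AMD1, SRM and SMS keep their sign under all 4, whereas OAZ1, OAZ2 and AZIN1 are above 0 with 3 of them and at -0.0102, -0.44 and -0.00592 with library totals alone.

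Within co-treatment with nelfinavir, the replicates split for OAZ1 and AZIN1 as they did for ODC1. OAZ1 was at 964.7 and 1125 CPM in replicates 1 and 2 and at 662.1 and 643.0 CPM in replicates 3 and 4, and AZIN1 was at 84.1 and 94.9 CPM against 59.9 and 63.4 CPM. Thus ODC1, OAZ1 and AZIN1 were all higher in replicates 1 and 2 than in 3 and 4 of this group. SMOX, OAZ2 and SRM went the other way, with replicates 1 and 2 lower than 3 and 4. For ODC1 all 4 replicates lay below bortezomib alone, whereas for OAZ1 replicates 1 and 2 lay above and replicates 3 and 4 below every library of bortezomib alone. Over all 4 replicates, neither OAZ1 (log2 fold change 0.17, edgeR adjusted p = 0.38) nor AZIN1 (log2 fold change 0.30, edgeR adjusted p = 0.0549) was called against bortezomib. The AZIN1 result lay at the threshold: with median-of-ratios factors (edgeR adjusted p = 0.0446), without the filter on low counts (edgeR adjusted p = 0.0413), in DESeq2 (adjusted p = 0.0343), with the residual component as a covariate (edgeR adjusted p = 0.0201) and without replicate 4 of bortezomib or replicate 3 or 4 of the co-treatment (edgeR adjusted p from 0.00798 to 0.0255) it was called higher. With replicates 1 and 2 alone, a choice made after the data were seen, the values were 0.48 (edgeR adjusted p = 0.00806) and 0.56 (edgeR adjusted p = 0.000744), and with replicates 3 and 4 alone -0.16 (edgeR adjusted p = 0.404) and 0.06 (edgeR adjusted p = 0.764). OAZ2, at 38.7, 34.7, 45.4 and 40.4 CPM, was above every library of bortezomib alone (log2 fold change 0.41, SE 0.135, edgeR adjusted p = 0.0212). That call was lost without replicate 3 of bortezomib (edgeR adjusted p = 0.0644), without replicate 3 of the co-treatment (edgeR adjusted p = 0.0657) and in a model of only the groups compared (edgeR adjusted p = 0.0829). With replicates 1 and 2 of the co-treatment alone it was also lost (log2 fold change 0.30, edgeR adjusted p = 0.191).

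Counted together, co-treatment with nelfinavir raised SAT1, SMOX, SMS and OAZ2 and lowered ODC1 relative to bortezomib, 4 and 1 of 10 members, where 15.6% of all genes were higher and 13.4% lower. Co-treatment with ISRIB raised none and lowered SAT1, SMOX and ODC1, where 6.91% of all genes were higher and 5.34% lower. The member medians were 0.21 and 0.06 on the log2 scale, and the medians of all genes -0.02 and 0.01. Both co-treatments were compared with the same 4 bortezomib libraries, which also enter the comparison with DMSO, so the values are given side by side only: SAT1 changed by 2.81, 0.25 and -0.31, SMOX by 3.08, 0.43 and -0.41, and ODC1 by 0.69, -1.01 and -0.47 on the log2 scale for bortezomib against DMSO, nelfinavir added and ISRIB added. SAT1 and SMOX thus moved in opposite directions when the 2 drugs were added, whereas ODC1 fell with both.

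**Figure D2:**
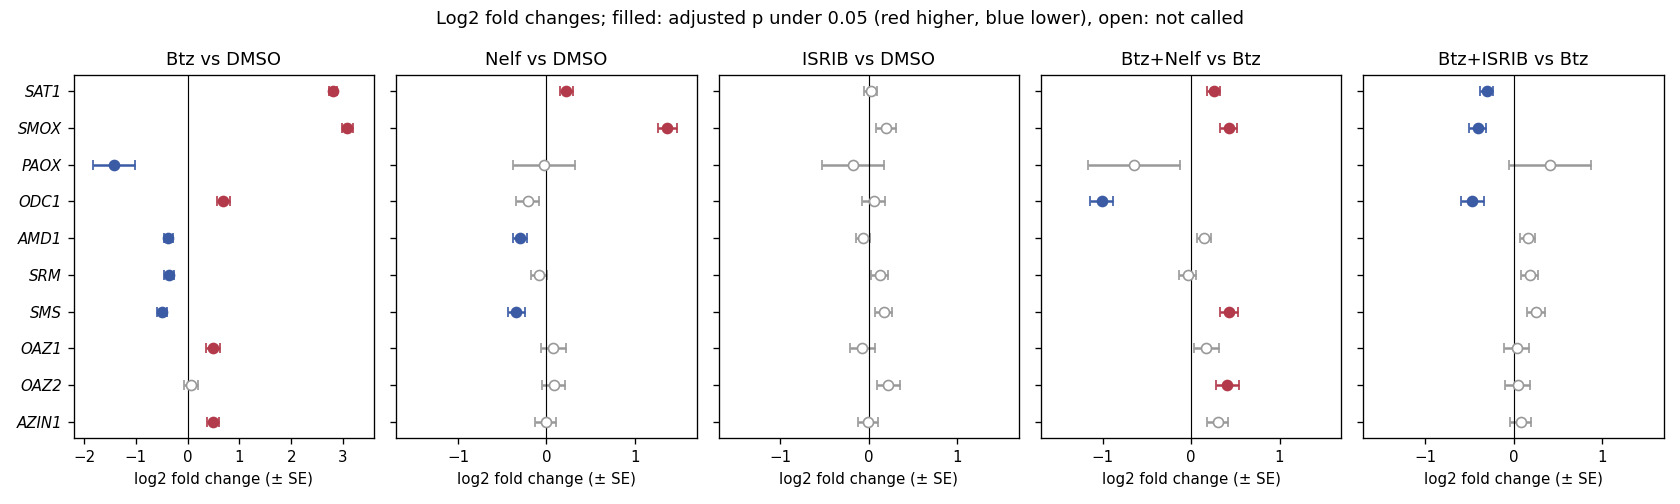
Log2 fold change (horizontal axis) ± SE of the 10 genes in 5 comparisons, each point a fit over all 24 libraries with 4 per group; filled points have an edgeR adjusted p under 0.05, red when higher and blue when lower, and open points were not called. The horizontal scale of the first panel is wider, and the ISRIB panel has no filled point.

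Nelfinavir alone raised SMOX and SAT1 and lowered AMD1 and SMS, 2 and 2 of 10 members, against 10.4% of all genes higher and 8.84% lower. SAT1, at 150.8, 134.4, 141.1 and 155.0 CPM, was above every DMSO library, but its log2 fold change of 0.23 (SE 0.0722, edgeR adjusted p = 0.0227) was not called when DMSO replicate 1, 2 or 4 or nelfinavir replicate 1 or 4 was left out (edgeR adjusted p from 0.0518 to 0.0919), with library totals (edgeR adjusted p = 0.0672) or without the filter on low counts (edgeR adjusted p = 0.152). ISRIB alone changed 0 of the 10 members and 0% of all genes at an edgeR adjusted p under 0.05, while 703 genes but 0 members had an unadjusted p under 0.05 and DESeq2 called 21 genes and 0 members. The member changes with ISRIB ran from -0.17 (PAOX) to 0.22 (OAZ2) on the log2 scale. For the 9 genes other than PAOX the intervals of 2 SE lay between -0.35 and 0.48, and the interval of each gene differed, the narrowest being that of SAT1, from -0.12 to 0.16.

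The interaction asks whether nelfinavir acted differently in the presence of bortezomib, as the log2 change on adding nelfinavir to bortezomib minus the change on adding it to vehicle. SMOX rose with nelfinavir in either setting, by 1.37 without and 0.43 with bortezomib, and the difference was -0.94 (SE 0.145, edgeR adjusted p = 1.1e-05). ODC1 changed by -0.21 and -1.01, a difference of -0.80 (SE 0.186, edgeR adjusted p = 0.00208). SMS, which fell by 0.34 without and rose by 0.43 with bortezomib, gave the largest positive difference, 0.77 (SE 0.143, edgeR adjusted p = 0.000164). For AMD1 the changes were -0.30 and 0.14, which differed by 0.45 (SE 0.116, edgeR adjusted p = 0.0058). These 4 genes, 2 in each direction, stood against 9.74% of all genes with a positive and 10.0% with a negative interaction. For SAT1 the interaction was 0.03, with an interval of 2 SE from -0.18 to 0.23.

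For ISRIB, the interaction was called for 1 member. Against DMSO, ISRIB changed SMOX by 0.19 (not called), and against bortezomib by -0.41, an interaction of -0.60 (SE 0.15, edgeR adjusted p = 0.0144), where 2.93% of all genes had a positive and 1.89% a negative interaction. Replicate 3 of ISRIB, at 24.4 CPM against 17.2 to 18.9 CPM in the other libraries, bore on this value, and without it the interaction was -0.48 (edgeR adjusted p = 0.0506). SAT1, at -0.33 (edgeR adjusted p = 0.0545), and ODC1, at -0.53 (edgeR adjusted p = 0.1), were not called. Both depended on the setting: SAT1 was called with median-of-ratios factors (edgeR adjusted p = 0.0463), library totals (edgeR adjusted p = 0.0441), no mitochondrially encoded genes (edgeR adjusted p = 0.0382), only the groups compared (edgeR adjusted p = 0.0473), the residual covariate (edgeR adjusted p = 0.0177), DESeq2 (adjusted p = 0.00549) and without replicate 4 of bortezomib or replicate 3 of bortezomib with ISRIB (edgeR adjusted p = 0.0387 and 0.0497). ODC1 was called without the filter on low counts (edgeR adjusted p = 0.00783), with only the groups compared (edgeR adjusted p = 0.0127), with the replicate block (edgeR adjusted p = 0.0422) and with the covariate (edgeR adjusted p = 0.00021).

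**Figure D3:**
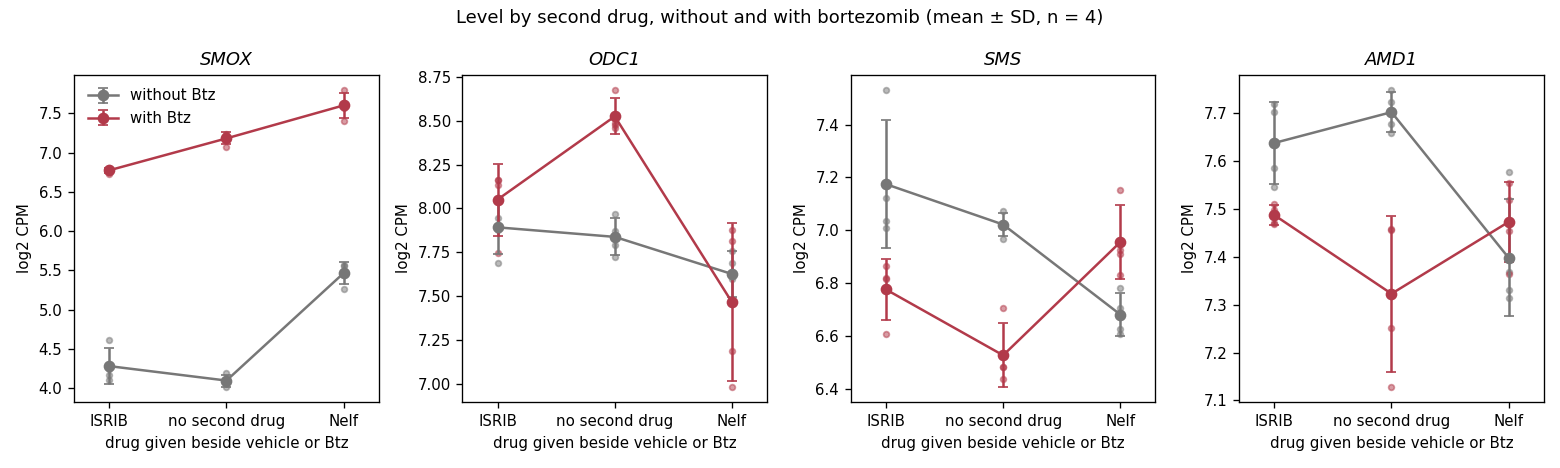
Level (log2 CPM, vertical axis) of the 4 genes with a called interaction of nelfinavir and bortezomib, by the drug given beside vehicle (grey) or bortezomib (red); small points are libraries and large points with bars the mean ± SD (n = 4). The SMOX lines come closer at nelfinavir, the ODC1, SMS and AMD1 lines cross between no second drug and nelfinavir, and AMD1 changes by -0.30 with nelfinavir in vehicle and by 0.14 in bortezomib.

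Of the neighbouring steps, 34 further genes were listed by function and 29 of them tested. The counts for bortezomib below stand against the 27.6% of all genes that were higher and the 25.8% that were lower. Among 8 tested transport genes, bortezomib raised 2 and lowered 1, and GPC1, one of the genes raised, was not called with library totals (log2 fold change 0.06, edgeR adjusted p = 0.759). SLC3A2, a subunit of amino acid exchangers that has also been linked to polyamine export, rose from 249.4 to 268.4 CPM in DMSO to 587.2 to 659.8 CPM (log2 fold change 1.24, edgeR adjusted p = 2.75e-14), was higher with nelfinavir alone (log2 fold change 1.16, edgeR adjusted p = 6.35e-13), and against bortezomib rose with nelfinavir by 0.87 (edgeR adjusted p = 9.96e-10) and fell by 0.36 with ISRIB (edgeR adjusted p = 0.00303). ATP13A3, a polyamine uptake pump, rose against bortezomib on both co-treatments, by 0.67 with nelfinavir (edgeR adjusted p = 0.000908) and 0.66 with ISRIB (edgeR adjusted p = 0.00282). With nelfinavir alone ATP13A3 was lower, at a mean of 30.5 CPM against 42.5 CPM in DMSO. That call was lost without DMSO replicate 3 (edgeR adjusted p = 0.0738) or nelfinavir replicate 4 (edgeR adjusted p = 0.0788). Over the alternative settings, its interaction with bortezomib ran from 1.01 to 1.34 for nelfinavir and from 0.71 to 0.99 for ISRIB.

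Spermidine is used to modify the translation factor eIF5A, and the 4 hypusine genes are EIF5A, EIF5A2 and the modifying enzymes DHPS and DOHH. Bortezomib raised 2 of them, EIF5A and EIF5A2, and lowered none, whereas with library totals it raised none. The enzymes DHPS (log2 fold change -0.12, edgeR adjusted p = 0.668) and DOHH (log2 fold change 0.33, edgeR adjusted p = 0.155) were not called. EIF5A2 rose by 0.66 (edgeR adjusted p = 0.00905), a call lost with library totals (0.16, edgeR adjusted p = 0.542), without DMSO replicate 2 (edgeR adjusted p = 0.0561) and without bortezomib replicate 3 (edgeR adjusted p = 0.114). EIF5A itself rose by 0.59 (edgeR adjusted p = 4.87e-05), a call lost with library totals (0.09, edgeR adjusted p = 0.472), and, as ODC1 did, it was lower than in bortezomib on co-treatment with nelfinavir (log2 fold change -0.71, edgeR adjusted p = 1.84e-05) and with ISRIB (log2 fold change -0.46, edgeR adjusted p = 0.00706). Of 6 tested genes of ornithine and arginine supply, bortezomib raised 2 and lowered 3. ARG2, the mitochondrial arginase, rose by 1.22 (edgeR adjusted p = 6.08e-05), while the rise of ASL was not called with library totals (log2 fold change 0.01, edgeR adjusted p = 0.952). AGMAT, annotated as agmatinase, fell by 0.87 (edgeR adjusted p = 5.74e-10), and ALDH18A1, which starts ornithine synthesis from glutamate, fell by 1.46 (edgeR adjusted p = 1.46e-09). Of 9 genes of S-adenosylmethionine supply and methylthioadenosine salvage, bortezomib raised none and lowered 4, with MAT1A, the hepatic S-adenosylmethionine synthetase, the largest at -1.60 (edgeR adjusted p = 1.74e-15). The fall of MRI1 (log2 fold change -0.51, edgeR adjusted p = 0.0326) was not called without DMSO replicate 1 (edgeR adjusted p = 0.0696) or 4 (edgeR adjusted p = 0.08). SAT2, a relative of SAT1, was 1 of 2 tested paralogs and went the other way under bortezomib (log2 fold change -0.31, edgeR adjusted p = 0.00559), though it too was higher with nelfinavir alone (log2 fold change 0.71, edgeR adjusted p = 2.54e-07).

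The other comparisons called fewer of these 29 genes. The counts for nelfinavir alone stand against 10.4% of all genes higher and 8.84% lower. Nelfinavir alone raised 1 and lowered 1 transport gene, raised 2 genes of ornithine and arginine supply, ARG2 (log2 fold change 0.77, edgeR adjusted p = 0.0178, between 0.0527 and 0.0794 without DMSO replicate 2 or 4 or nelfinavir replicate 3) and the argininosuccinate synthase ASS1 (log2 fold change 0.66, edgeR adjusted p = 0.000304), and lowered 2 of the S-adenosylmethionine and salvage genes. The latter were MRI1 (log2 fold change -1.04, edgeR adjusted p = 0.000173) and APIP (log2 fold change -1.65, edgeR adjusted p = 0.0263), both of the methionine salvage pathway. The APIP call was lost when DMSO replicate 2 or 4 or nelfinavir replicate 1, 3 or 4 was left out (edgeR adjusted p from 0.0588 to 0.104). On co-treatment with nelfinavir, against bortezomib, 2 transport genes were higher, 1 hypusine gene was higher and 1 lower, 2 S-adenosylmethionine and salvage genes were lower and the paralog SAT2 was higher, beside 15.6% of all genes higher and 13.4% lower. Of these calls, EIF5A2, MAT2B, MTAP and SAT2 were each lost in a model of only the groups compared (edgeR adjusted p = 0.109, 0.0762, 0.0606 and 0.103). MAT2B was also lost on leaving out any of 6 of the 8 libraries (edgeR adjusted p from 0.0517 to 0.171), EIF5A2 with library totals (edgeR adjusted p = 0.0522) and on leaving out any of 3 libraries (bortezomib replicate 2 or 4 or co-treatment replicate 3), MTAP without co-treatment replicate 3 (edgeR adjusted p = 0.0658) and SAT2 without co-treatment replicate 4 (edgeR adjusted p = 0.0581). MTAP, which starts methylthioadenosine salvage, had the smallest p of its list (log2 fold change -0.52, edgeR adjusted p = 0.0082). On co-treatment with ISRIB, 1 transport gene was higher, and 1 transport and 1 hypusine gene were lower, beside 6.91% of all genes higher and 5.34% lower. ISRIB alone changed none of the 29 genes. The interaction of nelfinavir and bortezomib was positive for ATP13A3 and negative for EIF5A (-0.59, edgeR adjusted p = 0.00883) and SAT2 (-0.42, edgeR adjusted p = 0.0214). Of all genes, 9.74% had a positive and 10.0% a negative one. The SAT2 call was lost without the filter (edgeR adjusted p = 0.123) and in other settings. For ISRIB it was positive for ATP13A3 and negative for EIF5A (-0.635, edgeR adjusted p = 0.0159), beside 2.93% and 1.89% of all genes.

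For the 4 members that were called with a change of more than 2-fold in a comparison of treatments, the genes most alike over the 24 libraries were found by Pearson's r of log2 CPM. These are descriptions, as the 24 libraries share 6 treatments and are not independent points. UBQLN1 (r = 0.993), PPP2CB (r = 0.992) and P4HA2 (r = 0.991) were closest to SAT1, and JUN (r = 0.992), YPEL5 (r = 0.991) and PPP1R15A (r = 0.990) to SMOX. ODC1 was followed less closely, by ORC3 (r = 0.920), EPDR1 (r = 0.892) and EPCAM (r = 0.883), and the sparsely counted PAOX by UNK (r = 0.911), BDH1 (r = 0.892) and COLCA2 (r = 0.892).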

How the data were processed

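Total RNA of 24 HepG2 cultures (4 biological replicates of 6 treatments) had been made into QuantSeq 3′ libraries and sequenced as 1 pool. The authors trimmed reads with cutadapt 2.8 and aligned them with STAR to hg19/GRCh37 in the nf-core RNA-Seq pipeline. Reads were counted on Ensembl GRCh37 genes of the protein coding, lincRNA and antisense biotypes. The deposited values are unnormalized counts per gene, with 1 value per gene and library. Not given in the sources used here were the counting program, its strand setting and whether molecular identifiers were used. Reads of near-identical or overlapping genes may have been split where both genes were in the annotation used for counting. Reads were taken near the 3′ end of transcripts, and counts do not scale with transcript length.

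The filterByExpr function (at least 5 counts, 25 in total) left 12685 of 18915 genes, and libraries were scaled with TMM factors. edgeR 4.0.16 (R 4.3.3) fitted a quasi-likelihood model to all 24 libraries with a coefficient per treatment, and p-values were adjusted over all tested genes (Benjamini-Hochberg) for each of 7 comparisons. Totals per library of 5154533 to 6943164 counts set the precision, and low genes such as PAOX have wide errors. Log2 CPM used a prior count of 2. Alternatives were median-of-ratios factors, library totals, removal of mitochondrially encoded genes, no filter, a replicate block, only the groups compared, DESeq2 1.42.0 and each library left out. The first residual component as a covariate and separate pairs of the bortezomib with nelfinavir libraries were added after the data were seen. No 2 replicates agreed within sampling noise (lowest chi-square per degree of freedom 2.14). The final 500 bases of every GENCODE transcript of each member were aligned with BLAST 2.17.0, keeping alignments of at least 80 bases and 97% identity. The longest alignment to each other gene is given.

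The 10 members and the lists of neighbouring genes were chosen with earlier results of these data known. Members are all named. From each list, the genes called with more than a 2-fold change in a comparison are named by rule. Where none was, the called gene with the smallest p is named. AGMAT, ASL, GPC1, EIF5A2, MAT2B, DHPS, DOHH and further comparisons of the named genes were added after their values were seen. Positions, overlapping genes and near copies are from GENCODE on GRCh37, which is not the annotation the authors counted on. Promoter sequences are from RefSeq on GRCh38.p14, with no conversion between builds.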

Additional observations from a re-analysis of the deposited data

Results flagged for a closer look

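Within-group gaps were looked at for 60 sets of 4 libraries (10 genes in 6 treatments), and in 6 of them the highest or lowest library lay apart from the other 3 by more than Dixon's 95% critical value, where chance flags about 1 in 20. In bortezomib with nelfinavir, SAT1 was 978.6 CPM in replicate 1 and 1053 to 1065 CPM in the others. Bortezomib replicate 4 was high for ODC1 (409.7 CPM against 352.5 to 358.4 CPM) and for SMS (104.4 CPM against 86.6 to 89.4 CPM). Replicate 3 of bortezomib with ISRIB, which also stood apart on the first residual component, was low for ODC1 (214.3 CPM against 281.2 to 287.1 CPM) and for OAZ1 (531.2 CPM against 845.4 to 853.4 CPM). AZIN1 was 47.4 CPM in ISRIB replicate 2 and 41.7 to 42.2 CPM in the others.

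The effect of a second drug differed between cells with and without bortezomib, by the interaction term, in 5 cases. For nelfinavir the interaction was -0.94 for SMOX, -0.80 for ODC1, 0.77 for SMS and 0.45 for AMD1 on the log2 scale (edgeR adjusted p = 1.1e-05, 0.00208, 0.000164 and 0.0058). Each of these 4 was called when any 1 of the 16 libraries involved was left out. For ISRIB it was -0.60 for SMOX (edgeR adjusted p = 0.0144), and this call was lost without ISRIB replicate 3.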

How the results depend on the processing

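Over the calls of members in the 7 comparisons, 218 of 226 values under other settings and 240 of 248 values with 1 library left out kept their direction and call. With library totals alone, OAZ1 (-0.0102), OAZ2 (-0.44) and AZIN1 (-0.00592) changed sign for bortezomib against DMSO, and all genes split into 1490 higher and 6266 lower, against 3498 and 3275 with TMM factors. For bortezomib with nelfinavir against bortezomib, where 5 members were called, 3 were called in a model of only the groups compared, 6 with median-of-ratios factors, no filter, DESeq2 or the covariate, and 4 to 6 with 1 library left out. For the interaction of ISRIB and bortezomib, where 1 member was called, 2 were called with median-of-ratios factors, library totals, no mitochondrially encoded genes, no filter, the replicate block and DESeq2, and 3 with only the groups compared or the residual component as a covariate; leaving out 1 library gave 0 (without ISRIB replicate 3) to 2. The cause was not tested. Over all genes, a model of only the groups compared called 3873 genes for nelfinavir against DMSO (2441 in the model of all groups), 2246 for bortezomib with nelfinavir (3669) and 867 for bortezomib with ISRIB (1553) against bortezomib, and the ISRIB interaction had 923 calls with DESeq2 and 1202 with the covariate (612).

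The replicate numbers were not treated as a pairing, since the labels do not say that they mark shared cultures. The deviations from the group means correlated above 0.1 in 22 of 60 same-numbered pairs (from -0.36 to 0.62) and in 45 of 180 others. Of 24 libraries, 11 correlated best with their own number. These values do not settle whether the numbers mark a pairing. In the sample titles, the ISRIB replicate numbers do not follow the order of the library numbers, whereas those of the other treatments do. The replicate block used the numbers as given. With the replicate block, 6834, 2566, 0, 3733 and 1608 genes were called in the comparisons of treatments and 2596 and 692 in the interactions; among members it added ODC1 to the ISRIB interaction (-0.53, edgeR adjusted p = 0.0422). Depth limits PAOX, with 1 to 59 counts per library.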
